A study of Homo sapiens with 6 samples.

Results

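Keratins, desmosome components, plakins and vimentin make up the intermediate filament system of epithelial cells and its anchors. The genes described here were every gene of the count table named KRT plus a number, with an optional letter, plus 16 named genes: the desmosomal cadherins (DSG1 to DSG3, DSC1 to DSC3), plakoglobin and the plakophilins (JUP, PKP1 to PKP4), the plakins (DSP, EVPL, PPL, PLEC) and VIM. Of 16229 genes in the table, 52 were members, 37 of them keratins, and DSC1 had no row. The 6 RNA-seq libraries were 3 labelled GCA and 3 labelled CON, and each group's cells carried the cell line label MC38, the cell type label CRC and the genotype label WT. Cells were kept 24 hours with GCA, read from the series' title as the bile acid glycocholic acid, or without it (CON). No dose is given in the sources used here, and no other agent or allele is named in the labels of either group.

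Several labels conflict. MC38 is known as a mouse colon carcinoma line, yet the organism label is human, the build is hg38, and the table lists human symbols. The extraction text speaks of heart tissue. The GCA samples bear the title fa, so each GCA value rests on the treatment label. No label states that replicates came from separate cultures, and each p-value therefore covers only the spread among these 6 samples, possibly technical. In bulk RNA, fewer cells of a type and less RNA per cell cannot be told apart.

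Keratins form filaments only as pairs of 1 acidic type I and 1 basic type II chain. Desmosomes fasten these filaments to the cell border: cadherins bridge adjacent cells, plakoglobin and plakophilins bind the cadherin tails, and desmoplakin ties the plaque to the filaments. Simple gut epithelium is known for KRT8 with KRT18, KRT19 and KRT20, while stratified epithelia use other pairs such as KRT5 with KRT14. Vimentin builds the filaments of mesenchymal cells.

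Total counts were 19484569 to 20531612 in GCA and 18057453 to 19110987 in CON, so that 3 counts in a library correspond to 0.149 to 0.167 CPM (read counts divided by the effective library size from TMM). Such floors cover counting error only. The first principal component (65.7% of variance) parted GCA from CON, and on the second (18.1%) CON 1 stood at 34.5 against -14.7 and -17.8 for CON 2 and 3. Among 11 colorectal epithelial markers, EPCAM averaged 317 CPM in GCA and 276 CPM in CON and CDX2 averaged 36.7 CPM in GCA and 30.8 CPM in CON. The intestinal markers VIL1, LGALS4 and CDH17 averaged 0.732, 1.91 and 0.374 CPM in GCA and 0.606, 2.38 and 0.650 CPM in CON. General epithelial markers and CDX2 were thus at clear levels, and these enterocyte markers were near the floor or a few CPM. Markers of other cells summed to 31.8 to 41.5 CPM (leukocyte), 1.88 to 2.49 CPM (endothelium) and 37.2 to 42.4 CPM (cardiomyocyte) in GCA and to 27.5 to 31.7, 0.569 to 1.04 and 23.4 to 26.8 CPM in CON. PTPRC, MYH6, MYH7 and ACTC1 had 0 or 1 count in each library, and nearly all of the cardiomyocyte sum was TNNI3. Members took 1.41% to 1.52% of all counts in GCA and 1.08% to 1.17% in CON.

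A filter on low counts (edgeR's filterByExpr, minimum count 10) left 29 members for edgeR's quasi-likelihood test (n = 3 per group, adjusted p under 0.05 by the Benjamini-Hochberg method over all tested genes), which gave every adjusted p of a gene printed here unless another tool is named. Of these 29, 12 rose in GCA (41.4%), 3 fell (10.3%) and 14 did not pass. Over all 12604 tested genes, 18.3% rose and 18.1% fell. With a fold of at least log2 1 as well, 6 members rose and 1 fell, against 5.21% and 1.44% of all tested genes. With the replicate number as a block 12 members rose and 3 fell, against 20% and 21% of all tested genes (41% in either direction). The members that rose were 8 of 17 tested keratins and 4 of 11 tested desmosome and plakin genes. None of the 17 keratins fell by edgeR's test, with 0 at an unadjusted p under 0.05 and 0 by DESeq2 or limma-voom, although 3 fell with the correction for GC content and length described further on. The median log2 fold change, GCA over CON, was 0.20 over tested members and -0.04 over all tested genes. Groups did not overlap in 15 members: GCA lay above CON in 12 and below in 3, against 24.1% and 24.3% of all tested genes.

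**Figure D1:**
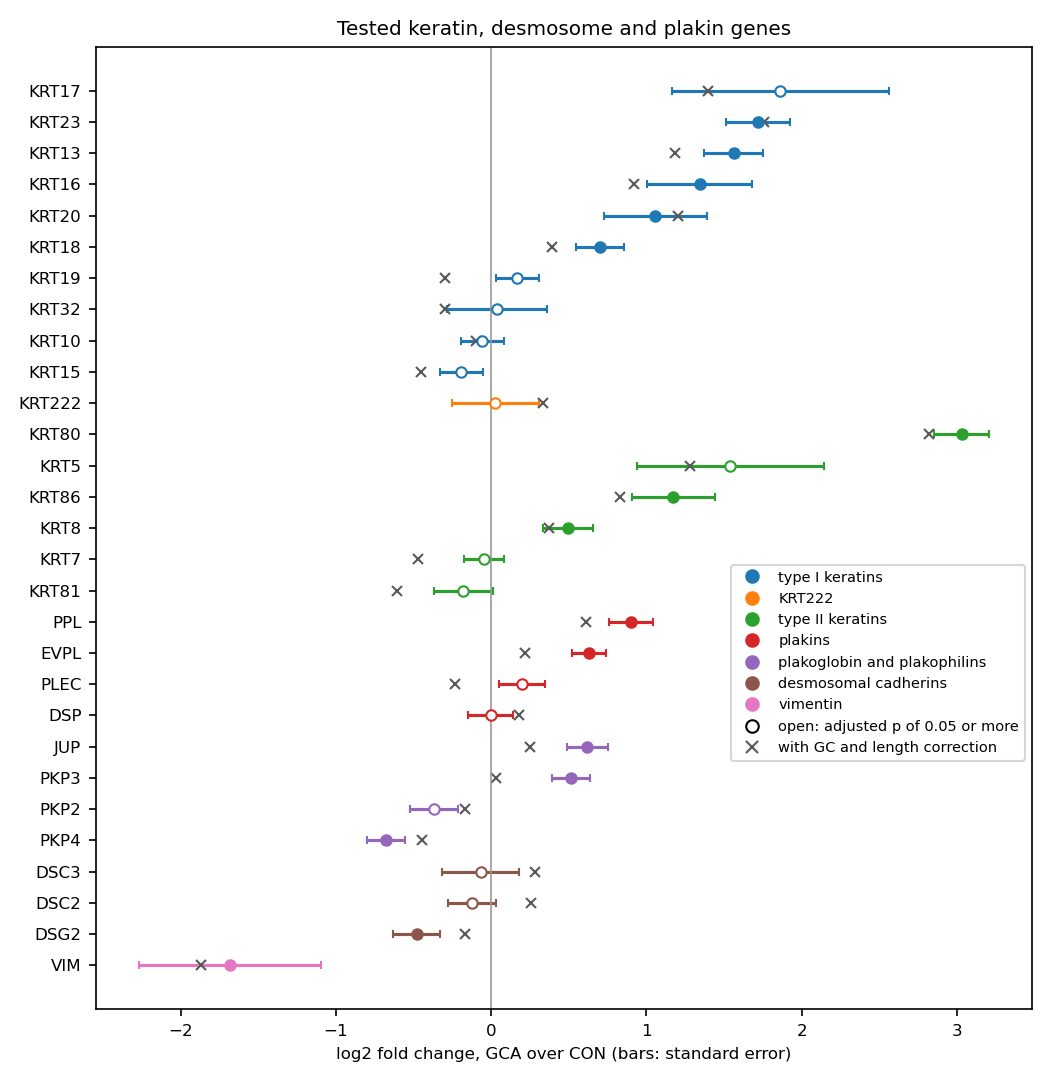
Log2 fold change of GCA over CON (x axis) for the 29 tested members by family, with bars for the standard error. Filled circles passed at an adjusted p under 0.05, and crosses give the same value after a correction for GC content and transcript length. KRT80 stands farthest to the right at 3.03 and VIM farthest to the left at -1.68.

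The simple epithelial keratins carried nearly all keratin mRNA, and 2 of the 3 most abundant rose. In FPKM, which divides by gene length and so allows genes to be compared, KRT8, KRT18 and KRT19 made up 97.5% to 97.6% of summed keratin FPKM in GCA and 97.2% to 97.8% in CON. KRT8, the type II chain of simple epithelia (chromosome 12, 52897191 to 52949860, GRCh38.p14), had 6303, 7165 and 7504 CPM in GCA, against 5865, 4401 and 4598 CPM in CON. Each GCA library lay above each CON library, GCA 1 and CON 1 being closest. Its log2 fold change was 0.50 ± 0.16 (SE; adjusted p = 0.0301). The KRT8 call was lost without GCA 2 (adjusted p = 0.108), GCA 3 (0.166), CON 2 (0.116) or CON 3 (0.123).

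KRT18, the type I partner of KRT8 (chromosome 12, 52948855 to 52952906), had 2007, 2549 and 2510 CPM in GCA, against 1663, 1289 and 1385 CPM in CON. The groups did not overlap, and KRT18 rose by log2 0.70 ± 0.15 (adjusted p = 0.00407). The annotated spans of KRT8 and KRT18 overlap by 1006 bases, and the sources used here give no strand setting for the counting. Both genes are also known for many processed pseudogenes, so their values are uncertain to that extent.

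KRT19, the smallest keratin of simple epithelia, had 2393, 2176 and 2223 CPM in GCA and 2220, 1842 and 1981 CPM in CON. Its groups overlapped (log2 0.17 ± 0.14, adjusted p = 0.355). It passed without CON 1 (0.24, adjusted p = 0.0478) and without replicate 1 of both groups (0.23, adjusted p = 0.00673). KRT19 stood below 0 with the correction for GC content and length (-0.30, adjusted p = 0.053) and with that correction and the replicate block (-0.30, adjusted p = 0.0363), against 0.17 with the block alone, so no direction is given for it. KRT7, a type II keratin of ducts and glands, had 139, 172 and 174 CPM in GCA and 155, 162 and 182 CPM in CON (log2 -0.04 ± 0.13, adjusted p = 0.818). GCA 1 was the lowest and CON 3 the highest of the 6.

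KRT20, known as a marker of differentiated gut epithelium, was scarce. Its counts were 30, 47 and 36 in GCA, against 12, 22 and 18 in CON. The groups did not overlap and the log2 fold change was 1.06 ± 0.33 (adjusted p = 0.0246). The KRT20 call was lost without GCA 2 (adjusted p = 0.112), GCA 3 (0.0754) or CON 3 (0.0537).

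The balance of the 2 keratin types was near 1. Summed type I FPKM over summed type II FPKM was 0.968, 0.904 and 0.867 in GCA and 0.917, 0.980 and 1.01 in CON, with overlapping groups. The log2 difference, GCA minus CON, was -0.09 (two-sided exact permutation test over 3 against 3 libraries, p = 0.2, where the smallest p possible is 0.1). Among 4 such ratios, 2 of them chosen after their values were seen, its adjusted p was 0.267. Within the simple keratins, and chosen after their values were seen, 2 more ratios did not overlap between groups. KRT8 over KRT18 FPKM was 2.36, 2.12 and 2.25 in GCA, against 2.66, 2.57 and 2.50 in CON. KRT18 over KRT19 FPKM was 0.779, 1.09 and 1.05 in GCA, against 0.695, 0.650 and 0.649 in CON. Because both were picked with their groups apart, the smallest exact permutation p of 0.1 (adjusted 0.2) was fixed beforehand and is no evidence. In uncorrected FPKM, KRT18 was higher relative to KRT8 and to KRT19 in each GCA library than in any CON library. With the correction for GC content and length described further on, KRT18 stood at log2 0.39, KRT8 at 0.38 and KRT19 at -0.30. The rise of KRT18 was then close to that of KRT8. With 3 against 3 libraries this permutation test cannot give a p under 0.1.

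**Figure D2:**
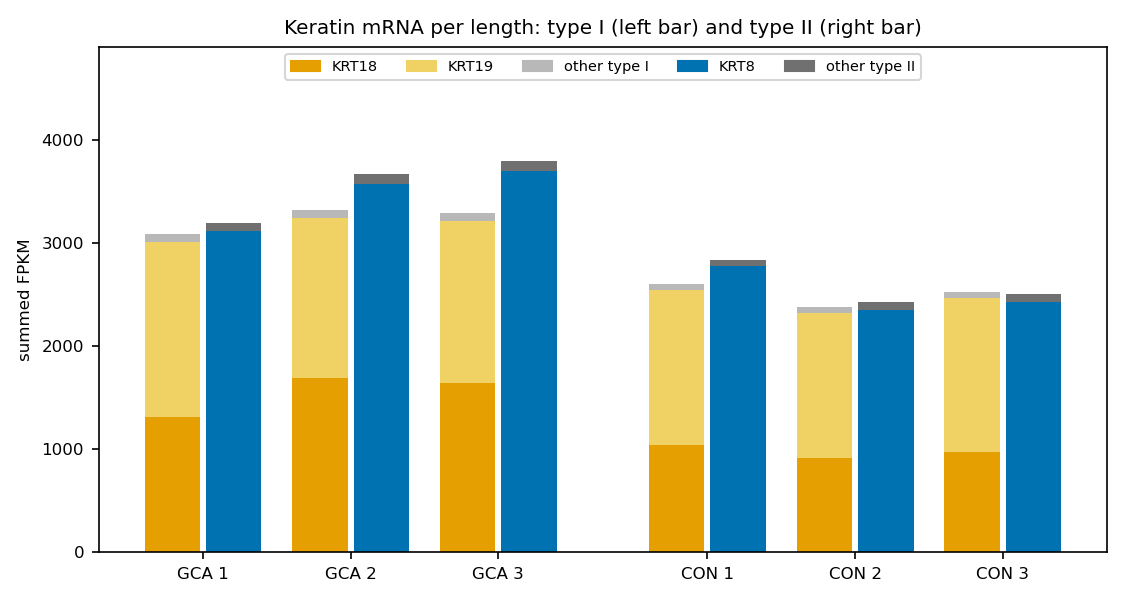
Summed FPKM (y axis) of type I keratins (left bar) and type II keratins (right bar) in each GCA and CON library. KRT8 fills most of each type II bar, KRT18 and KRT19 most of each type I bar, and all keratins sum to 6279 to 7083 FPKM in GCA and 4800 to 5439 FPKM in CON.

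The largest rises were in keratins at far lower levels. KRT80, a type II keratin known from differentiating epithelial cells (chromosome 12, 52168996 to 52192014), had 90.9, 109 and 107 CPM in GCA, against 14.4, 8.86 and 14.3 CPM in CON. The groups lay far apart, and KRT80 rose 8.18-fold (log2 3.03 ± 0.18, adjusted p = 5.45e-07). Per length it averaged 23.1 ± 2.31 FPKM in GCA and 2.90 ± 0.666 FPKM in CON (SD, n = 3 each), below KRT7 at 59.7 ± 7.37 FPKM in GCA and 63.7 ± 8.64 FPKM in CON.

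KRT23, a type I keratin known from gastrointestinal and pancreatic tumours (chromosome 17, 40922700 to 40937646), had 24.5, 32.8 and 32.1 CPM in GCA, against 6.24, 9.12 and 11.7 CPM in CON. It rose by log2 1.72 ± 0.21 (adjusted p = 9.10e-05). KRT13, a type I keratin of the lining of mouth and oesophagus (chromosome 17, 41500981 to 41505612), had 44.0, 34.1 and 39.3 CPM in GCA, against 9.41, 13.3 and 17.0 CPM in CON. It rose by 1.56 ± 0.19 (adjusted p = 9.82e-05). Its usual type II partner KRT4 had counts of 7, 3 and 2 in GCA and 0, 0 and 1 in CON, under the filter. For KRT80, KRT23 and KRT13 the call held under each of the 20 other settings that were run.

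KRT16, an inducible keratin of activated epidermis, had counts of 65, 37 and 37 in GCA, against 21, 18 and 13 in CON. It rose by 1.34 ± 0.34 (adjusted p = 0.00868) and lost the call with the correction for GC content and length (0.92, adjusted p = 0.054), though not with that correction and the replicate block together (0.037). The hair keratin KRT86 had counts of 51, 61 and 62 in GCA, against 20, 26 and 28 in CON (log2 1.17 ± 0.27, adjusted p = 0.00484), while KRT81, a near-identical hair keratin, had 140, 157 and 146 in GCA and 191, 139 and 149 in CON (-0.18 ± 0.19, adjusted p = 0.483). The span of KRT81 lies within that of KRT86, with 5622 shared bases, so reads can be split between them. With KRT81, KRT83, KRT85 and KRT86 summed to 1 row, counts were 205, 228 and 224 in GCA and 215, 167 and 181 in CON (0.16 ± 0.17, adjusted p = 0.493).

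The other tested keratins of skin and hair did not pass. KRT10, a keratin of the upper epidermis, had 59.0, 58.0 and 57.0 CPM in GCA and 73.0, 50.9 and 57.0 CPM in CON (log2 -0.06 ± 0.14, adjusted p = 0.771). CON 1 was the highest and CON 2 the lowest of the 6. KRT15, a basal keratin, and KRT32, a hair cuticle keratin, stood at -0.19 ± 0.14 and 0.04 ± 0.32 (adjusted p = 0.299 and 0.937), and the keratin-like KRT222 at 0.03 ± 0.28 (0.951).

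**Figure D3:**
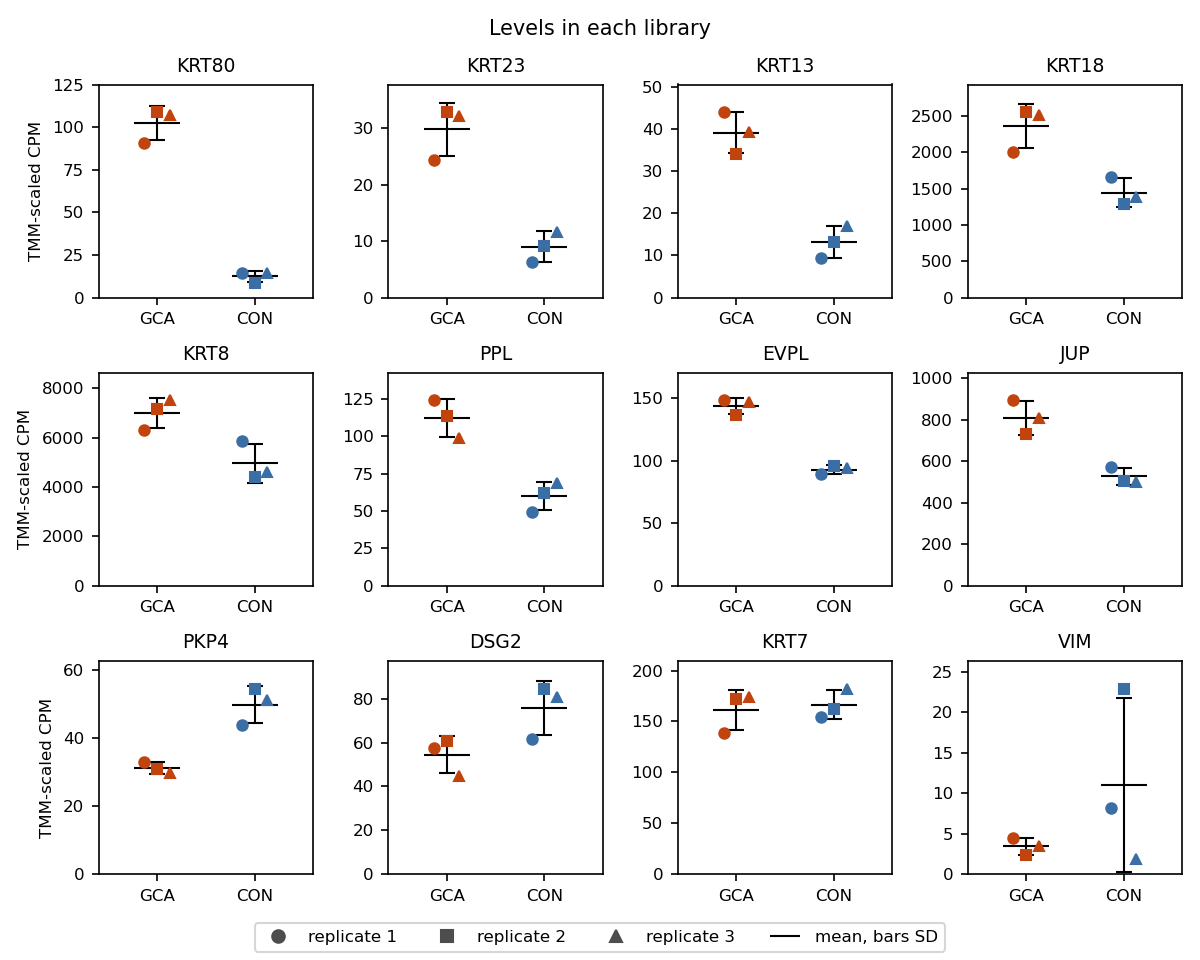
TMM-scaled CPM (y axis) of 12 members in GCA and CON, with marker shape for the replicate number, a horizontal line for the mean and bars for the SD. GCA lies wholly above CON from KRT80 to JUP and wholly below it for PKP4 and DSG2, while KRT7 and VIM overlap.

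KRT5 and KRT17, keratins of basal stratified epithelium, were at trace level and uneven within a group. The basal keratin KRT15 was not, with 25.1, 22.4 and 21.2 CPM in GCA and 29.7, 23.2 and 25.7 CPM in CON. KRT5, the type II basal keratin, had counts of 43, 87 and 37 in GCA and 11, 2 and 42 in CON. KRT17, a type I keratin of basal and injured epithelium, had 29, 56 and 18 in GCA and 1, 2 and 24 in CON. In both genes GCA 2 was the highest library, and CON 3 lay within the GCA range while CON 1 and 2 lay below it. Their log2 fold changes were 1.54 ± 0.60 (adjusted p = 0.0611) for KRT5 and 1.86 ± 0.70 (adjusted p = 0.0526) for KRT17, and without CON 3 they were 3.0 (adjusted p = 0.000862) for KRT5 and 4.34 (0.000365) for KRT17. Of the 20 other settings KRT5 passed in 5 and KRT17 in 7, among them limma-voom (adjusted p = 0.0249 for KRT5 and 0.0154 for KRT17) and no filter on low counts (0.0332 for KRT5 and 0.0316 for KRT17). Neither passed with DESeq2 (adjusted p = 0.259 for KRT5 and 0.237 for KRT17) or without GCA 2 (0.279 and 0.249). The correction for GC content and length gave no call either (0.176 for KRT5 and 0.214 for KRT17).

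KRT14, the usual partner of KRT5, had counts of 10, 3 and 27 in GCA and 1, 5 and 7 in CON, and the epidermal cadherin gene DSG3 had 3, 10 and 5 in GCA and 0, 0 and 5 in CON. TP63, a regulator of basal keratinocytes, had 5, 10 and 9 in GCA and 4, 0 and 3 in CON. None of these 3 passed the filter. The 7 keratinocyte markers, of which 5 had a row, summed to 61.0 to 63.3 CPM in GCA and 51.3 to 73.9 CPM in CON, nearly all of it KRT10, and IVL was at 0 in each CON library. Reads of KRT14, KRT16 and KRT17 can be split between these close paralogs.

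KRT6A, an inducible keratin that pairs with KRT16, went the other way in counts, with 8, 4 and 2 in GCA and 17, 8 and 31 in CON. The groups touch at 8 counts. It was under the filter. Summed with its near-identical paralog KRT6B, counts were 10, 6 and 5 in GCA, against 20, 11 and 31 in CON, and this sum fell by log2 1.61 ± 0.48 (adjusted p = 0.0194). Of the 23 members under the filter, 20 were keratins. KRT12, KRT31, KRT36, KRT37, KRT6B, KRT83 and PKP1, with KRT4, KRT6A, KRT14 and DSG3, had 3 or more counts in at least 2 libraries. The other 12 had 0 to 5 counts in each library. Without the filter KRT83, with 14, 10 and 14 counts in GCA and 4, 2 and 4 in CON, passed higher (1.82, adjusted p = 0.0271) and KRT6A passed lower (-2.05, adjusted p = 0.0138).

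**Figure D4:**
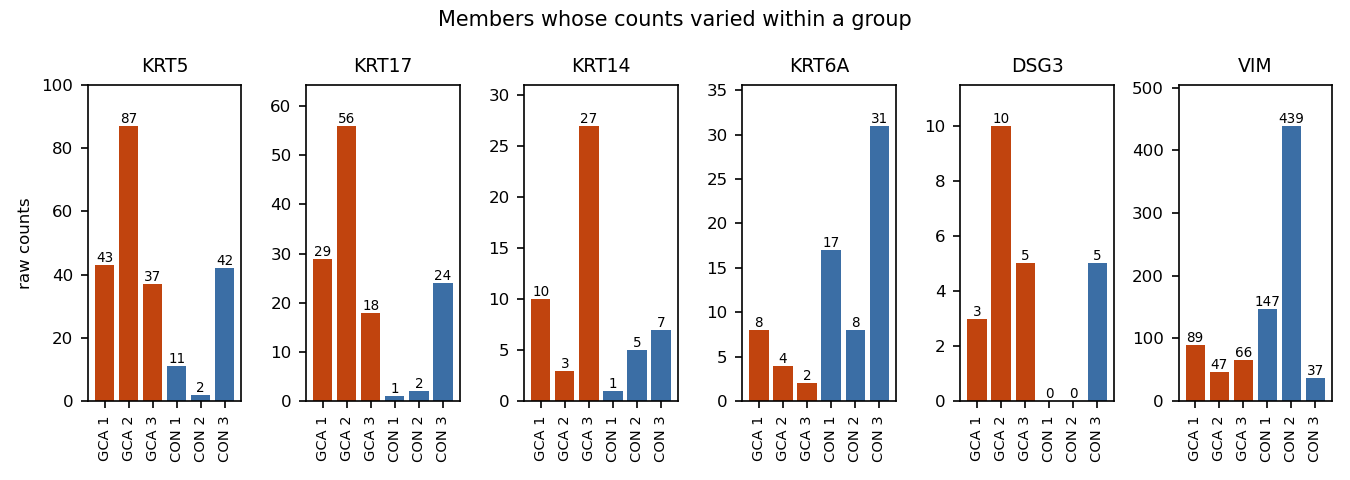
Raw counts (y axis) of 6 members in the 3 GCA and 3 CON libraries. KRT5 and KRT17 share their highest library, GCA 2, and CON 3 is the highest CON library for both, while VIM is highest in CON 2 at 439 counts.

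Promoter sequence was available for 30 of the 52 members, from RefSeq on GRCh38.p14. Of these 30, 18 were under the filter, 6 did not pass and 3 fell. Only 3 of the 12 members that rose had an entry (KRT8, KRT20 and JUP), and the KRT8 start lies inside its annotated span. The search thus says nothing about KRT80, KRT23, KRT13, KRT16, KRT18, KRT86, PPL, EVPL or PKP3. The 250 bases before the annotated start were searched on both strands for 5 motifs: AACCGGTT (grainyhead factors), TGANTCA (AP-1), CACCTG (the E-box bound by ZEB and SNAI repressors), the interferon-stimulated element and TATAAA. These are listed as letters, not as sites. None of the 30 held the grainyhead or AP-1 letters, which 0.106% and 6.60% of 27305 promoters hold. CACCTG occurred in 8 of the 30, against 17.5% of all promoters, and the interferon-stimulated element in 2, against 3.07%. TATAAA occurred in 10, against 11.1%. Of the keratins under the filter 9 of 15 held TATAAA, and of the tested keratins 1 of 5, KRT10. The sequences are those of KRT20 and JUP, which rose, DSG2, which fell, and KRT10 and KRT31, a clearly detected and a nearly silent keratin that share the TATA letters. Capitals mark any of the 5 motifs, each sequence runs 5′ to 3′ and ends at the base before the start, and the regions are chr17:40885243-40885492 (minus strand) for KRT20, chr17:41786712-41786961 (minus) for JUP, chr18:31497927-31498176 (plus) for DSG2, chr17:40822615-40822864 (minus) for KRT10 and chr17:41397609-41397858 (minus) for KRT31.
KRT20: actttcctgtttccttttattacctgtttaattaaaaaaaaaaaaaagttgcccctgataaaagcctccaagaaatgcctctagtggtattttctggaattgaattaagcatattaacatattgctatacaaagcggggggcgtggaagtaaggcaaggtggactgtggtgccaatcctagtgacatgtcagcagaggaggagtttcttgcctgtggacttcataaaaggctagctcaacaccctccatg
JUP: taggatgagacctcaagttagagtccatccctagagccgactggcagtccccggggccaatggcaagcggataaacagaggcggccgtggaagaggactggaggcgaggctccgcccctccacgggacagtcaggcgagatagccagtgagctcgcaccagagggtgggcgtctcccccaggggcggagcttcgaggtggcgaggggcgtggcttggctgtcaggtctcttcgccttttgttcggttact
DSG2: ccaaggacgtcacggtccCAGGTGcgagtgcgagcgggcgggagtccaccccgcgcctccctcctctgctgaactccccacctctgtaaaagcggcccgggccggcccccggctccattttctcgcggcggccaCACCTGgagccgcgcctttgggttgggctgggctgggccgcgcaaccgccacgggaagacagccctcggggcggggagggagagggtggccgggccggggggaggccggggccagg
KRT10: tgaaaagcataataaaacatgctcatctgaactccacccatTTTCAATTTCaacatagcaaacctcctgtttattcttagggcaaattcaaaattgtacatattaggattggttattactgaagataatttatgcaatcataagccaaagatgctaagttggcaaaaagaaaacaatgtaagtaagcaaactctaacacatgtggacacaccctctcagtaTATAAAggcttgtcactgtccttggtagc
KRT31: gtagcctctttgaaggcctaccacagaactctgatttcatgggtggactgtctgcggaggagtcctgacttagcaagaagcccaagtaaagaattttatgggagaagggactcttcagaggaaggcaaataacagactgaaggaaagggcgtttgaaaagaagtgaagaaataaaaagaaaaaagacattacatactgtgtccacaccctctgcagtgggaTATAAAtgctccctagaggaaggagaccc
No searched letters occurred in the KRT20 or JUP window. DSG2 held the E-box letters at 232 and 116 bases before the start. TATAAA stood 29 bases before the start in both KRT10 and KRT31, at levels of 26.4 FPKM in GCA and 28.1 FPKM in CON for KRT10 and at most 7 counts in a library for KRT31.

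No desmosomal cadherin was called higher. DSG2, the desmoglein of simple epithelia (chromosome 18, 31498177 to 31549008), had 57.5, 61.0 and 44.9 CPM in GCA, against 61.7, 84.7 and 81.1 CPM in CON. The groups did not overlap, though GCA 2 and CON 1 were close, and DSG2 fell by log2 0.48 ± 0.15 (adjusted p = 0.0264). The call was lost without GCA 1 (adjusted p = 0.0633), GCA 3 (0.141), CON 2 (0.119) or CON 3 (0.0803), and with the correction for GC content and length (0.321). The desmocollin DSC2 had 18.9, 19.8 and 16.3 CPM in GCA and 16.3, 22.7 and 20.9 CPM in CON (-0.12 ± 0.16, adjusted p = 0.566), and DSC3 stood at -0.07 ± 0.25 (adjusted p = 0.848). With the same correction both turned positive without a call, DSC2 at 0.26 (adjusted p = 0.104) and DSC3 at 0.28 (0.379). The epidermal desmoglein DSG1 had 2 counts in CON 3 and 0 in the other libraries.

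Among the plaque proteins, plakoglobin and 1 plakophilin rose and another plakophilin fell. JUP, the plakoglobin gene (chromosome 17, 41754609 to 41786711), had 892, 729 and 807 CPM in GCA, against 573, 505 and 501 CPM in CON. The groups did not overlap, and JUP rose by 0.62 ± 0.13 (adjusted p = 0.00348). PKP3, the plakophilin common to most epithelia (chromosome 11, 392596 to 404908), had 346, 326 and 335 CPM in GCA, against 258, 218 and 228 CPM in CON, a rise of 0.52 ± 0.12 (adjusted p = 0.00585). With the correction for GC content and length neither JUP (adjusted p = 0.0728) nor PKP3 (0.819) passed. PKP4, a p120-related armadillo protein also found at adherens junctions, had 33.0, 30.9 and 29.7 CPM in GCA, against 43.8, 54.5 and 51.1 CPM in CON. It fell by 0.67 ± 0.12 (adjusted p = 0.00134), and this call held under each of the 20 other settings. PKP2, the plakophilin of heart and simple epithelium, had 16.1, 13.9 and 11.9 CPM in GCA, against 18.7, 17.8 and 17.6 CPM in CON. Its groups did not overlap, yet it did not pass (-0.37 ± 0.15, adjusted p = 0.0746). It passed with the replicate number as a block (adjusted p = 0.0477), without GCA 1 (0.0479) and without replicate 1 of both groups (0.0120). With the correction for GC content and length PKP2 stood at -0.17 (adjusted p = 0.374).

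The plakins parted as well. PPL, the periplakin gene (chromosome 16, 4882507 to 4937148), had 124, 114 and 98.8 CPM in GCA, against 49.7, 62.1 and 68.5 CPM in CON. It rose by 0.90 ± 0.14 (adjusted p = 0.000507). EVPL, the gene of its partner envoplakin in the cornified envelope (chromosome 17, 76006845 to 76027306), had 148, 136 and 147 CPM in GCA, against 89.3, 95.7 and 94.2 CPM in CON, a rise of 0.63 ± 0.11 (adjusted p = 0.00106). The rise of PPL held with the correction for GC content and length, and that of EVPL did not pass (0.0703). DSP, which encodes desmoplakin, had 121, 117 and 86.8 CPM in GCA and 118, 110 and 96.5 CPM in CON (-0.00 ± 0.14, adjusted p = 0.989), with GCA 3 the lowest of the 6. PLEC, the gene of the cytolinker plectin, had 1529, 1081 and 1231 CPM in GCA and 1119, 1138 and 1090 CPM in CON (0.20 ± 0.15, adjusted p = 0.309). Its GCA 1 library stood above the others.

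Vimentin was low, and its fall rested on few libraries. VIM had counts of 89, 47 and 66 in GCA and 147, 439 and 37 in CON. CON 2 was the highest and CON 3 the lowest of the 6, so the groups overlapped. Its log2 fold change was -1.68 ± 0.59 (adjusted p = 0.0395), and without CON 2 it was -0.55 (adjusted p = 0.385). The call was also lost with DESeq2 (adjusted p = 0.153), with the replicate block (0.0843), with library size alone (0.0511), with limma-voom (0.242), with limma on log2 FPKM (0.185 and 0.195 with pseudocounts of 1 and 0.1) and without GCA 1, GCA 2 or GCA 3 (0.0941, 0.154 and 0.127). VIM came to 0.0320%, 0.0157% and 0.0222% of summed keratin FPKM in GCA and 0.0656%, 0.235% and 0.0185% in CON (log2 difference -1.56, exact permutation p = 0.3, adjusted 0.3 over 4 ratios).

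Of the other mesenchymal genes, CDH2 and ZEB1 shared the uneven CON libraries in part. The cadherin gene CDH2 had counts of 4, 8 and 3 in GCA and 15, 30 and 1 in CON, and the repressor gene ZEB1 had 6, 10 and 7 in GCA and 12, 27 and 7 in CON, so CON 2 was the highest library in both, as for VIM. These 2 genes were picked after their values were seen. The 16 mesenchymal and EMT genes with a row, VIM not among them, summed to 343, 349 and 337 CPM in CON 1, 2 and 3. In GCA they summed to 597 to 781 CPM. Most of each sum was S100A4, so the sum says little about the scarcer genes. The fibroblast markers (6 of 6 with a row) summed to 14.6 to 16.7 CPM in GCA and 11.4 to 12.3 CPM in CON, nearly all of it COL1A1, with DCN and LUM at 0 in each GCA library. The part of other cells in the VIM values was not tested.

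Fold changes followed transcript GC content. Over 12563 tested genes with a GC value the correlation across genes was r = 0.48, and over the 29 members it was 0.30. Genes are not independent replicates, and members share the same 6 libraries. Of 10 equal classes of genes by GC content, the lowest (median 37.3% GC) had a median log2 fold change of -0.36 and the highest (64.9%) had 0.44. Among desmosome and plakin genes, the 6 at 38.9% to 47.9% GC (DSC2, DSC3, DSG2, PKP2, PKP4 and DSP) had log2 fold changes from -0.67 to -0.00, and the 5 at 59.5% to 67.0% (PPL, JUP, EVPL, PKP3 and PLEC) had 0.20 to 0.90.

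With a smooth term for GC content and length in each library, 8 members rose and 4 fell, against 13.2% and 15.5% of all tested genes. KRT80 (2.82, adjusted p = 1.08e-05), KRT23 (1.76), KRT13 (1.19), KRT20 (1.21), KRT86 (0.83), PPL (0.61), KRT18 (0.39) and KRT8 (0.38) kept a call, as did the fall of PKP4 (-0.45). JUP stood at 0.25 (adjusted p = 0.0728, and 0.0373 with the replicate block added), EVPL at 0.22 (0.0703), PKP3 at 0.03 (0.819), DSG2 at -0.17 (0.321) and VIM at -1.87 (0.0569), so these calls were lost, as was that of KRT16. KRT7 (-0.47), KRT15 (-0.45) and KRT81 (-0.61), which had not passed before, fell with the correction (adjusted p = 0.0214, 0.0135 and 0.0142). Whether GC content was part of the difference between libraries or of the cells' response was not tested.

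**Figure D5:**
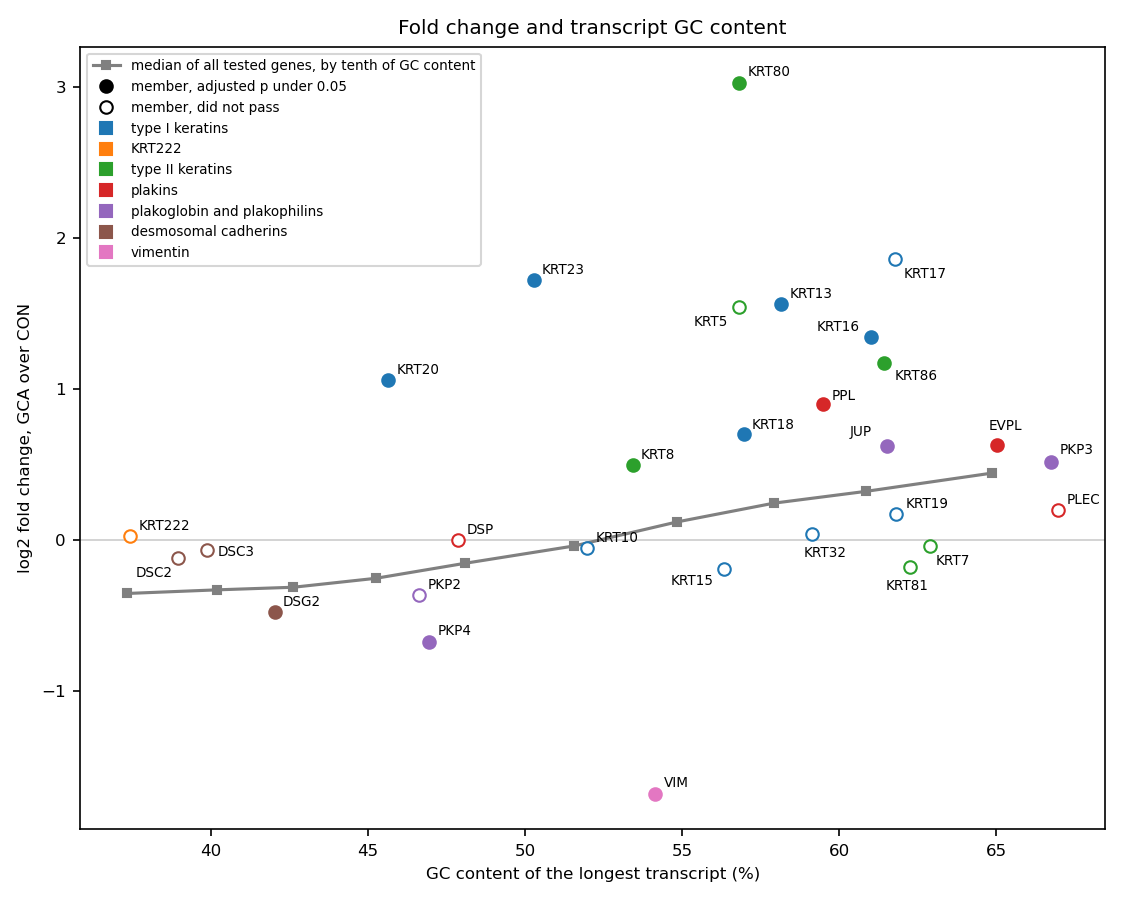
Log2 fold change of GCA over CON (y axis) against the GC content of the longest protein-coding transcript (x axis, percent) for the 29 tested members, coloured by family. The grey line joins the medians of all tested genes by 10 equal classes of GC content, from -0.36 to 0.44. KRT80, KRT23, KRT13 and KRT20 stand well above the line, PKP3 and EVPL close to it, and KRT7, KRT81 and KRT15 below it.

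Genes around the desmosome and keratin network moved in both directions. In a list of 16 further desmosome, plakin and keratin-associated genes, 5 of 12 tested genes rose and 2 fell, with a median of 0.35, and with the correction 6 rose and 1 fell, with a median of 0.24. These counts and those of the lists that follow stand beside 18.3% higher and 18.1% lower among all tested genes (13.2% and 15.5% with the correction). The kallikrein genes KLK5 and KLK7, whose proteases cut desmosomal proteins in shed skin, averaged 19.8 and 69.5 CPM in GCA, against 5.66 and 39.3 CPM in CON. They rose by log2 1.81 and 0.82 (adjusted p = 7.11e-06 and 0.000341). The membrane scaffold genes FLOT1 and FLOT2 rose by 0.73 and 0.60. The fifth to rise was FAM83H, a keratin-binding recruiter of casein kinase, at 0.44 and 0.00 with the GC and length correction. CSNK1A1, that kinase, and TCHP, a keratin-binding protein gene, fell by 0.55 and 0.75, and CSNK1A1 stood at -0.19 with the correction (adjusted p = 0.127). FAM83H, CSNK1A1 and TCHP were named after their values were seen. PERP, a desmosome membrane protein gene, had 0.09 (adjusted p = 0.608) and 0.42 with the correction (adjusted p = 0.00733).

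Among hemidesmosome genes, which anchor keratins to the matrix, 2 of 7 rose and 1 fell, and with the correction 1 rose and 1 fell. The integrin chain gene ITGB4 rose by 0.77 (adjusted p = 0.00789) and the laminin chain gene LAMA3 by 0.69 (adjusted p = 0.0162), while the partner chain gene ITGA6 fell by 0.45 (adjusted p = 0.0136). COL17A1 had 0.43 (adjusted p = 0.158). With the correction ITGB4 and ITGA6 lost their calls (0.38 and -0.15). ITGA6 also lost its call without GCA 3 (adjusted p = 0.0837) or CON 2 (0.0632), and LAMA3 without GCA 2 (0.0578). In the adherens junction core 4 of 10 rose and the other 6 did not pass. Those that rose were NECTIN2 (0.65), NECTIN4 (0.88), CDH3, the P-cadherin gene (0.55), and CDH1, the E-cadherin gene. CDH1 averaged 88.4 CPM in GCA and 66.8 CPM in CON (0.40, adjusted p = 0.046) and had 0.56 with the correction. The CDH1 call was lost with library size alone (adjusted p = 0.132), with upper quartile scaling (0.0729), with limma on log2 FPKM (0.128 and 0.118 with pseudocounts of 1 and 0.1) and without GCA 1, GCA 2 or GCA 3 (0.0755, 0.127 and 0.130), and that of CDH3 without GCA 3 (0.0513).

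The cornified envelope list, to which envoplakin and periplakin are tied in skin, was mostly silent. Of 26 symbols 16 had a row and 8 were tested. Only CSTB, a protease inhibitor gene, rose (0.37, adjusted p = 0.0359), and it stood at 0.12 with the correction (adjusted p = 0.345). It also lost its call without GCA 2, GCA 3, CON 2 or CON 3. With the correction 0 of the 8 rose and 1 fell. SPRR2D (-0.97), CSTA (-0.47) and ALOX12B (0.49) did not pass, though CSTA did without CON 1 (-0.69, adjusted p = 0.00773). IVL, the involucrin gene, had 4, 3 and 4 counts in GCA and 0 in each CON library.

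Of 8 tested genes of other intermediate filaments and lamins 4 rose and 1 fell, with a median of 0.33. With the correction 2 rose and 2 fell, with a median of -0.06. BFSP1, a lens filament protein gene, rose by 1.45 (adjusted p = 0.000139), SYNM, the synemin gene, by 1.21 and DES, the muscle desmin gene, by 0.58, as did NES, the nestin gene, by 0.45, which was named after its values were seen. DES stood at 0.13 with the correction (adjusted p = 0.602) and lost its call without GCA 2 (0.0871), GCA 3 (0.0997) or CON 2 (0.0698). The nuclear lamin gene LMNB1 fell by 0.63 (adjusted p = 0.00579). Of 15 tested regulators of epithelial keratin and junction genes 3 rose and 1 fell, shares near or under those of all tested genes. With the correction 4 rose and 1 fell, against 13.2% and 15.5% of all tested genes. ELF3, an epithelial ETS factor gene, averaged 277 CPM in GCA and 134 CPM in CON (1.05, adjusted p = 7.97e-05). OVOL1 and SOX9 rose by 0.71 and 0.54, and the splicing factor gene ESRP1 fell by 0.54, with -0.25 and no call after the correction (adjusted p = 0.150). Without GCA 3 both SOX9 (adjusted p = 0.0635) and ESRP1 (0.0647) missed the threshold, and ESRP1 also did without GCA 1, CON 2 or CON 3 (0.0526, 0.0524 and 0.0686). KLF4 had 0.19 (adjusted p = 0.425).

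In the list of mesenchymal genes 2 of 9 tested genes rose and the other 7 did not pass. S100A4, a calcium-binding protein gene, averaged 621 CPM in GCA and 251 CPM in CON (1.30, adjusted p = 6.83e-05). COL1A1 rose by 0.44 (adjusted p = 0.034), stood at 0.10 with the correction, and kept its call without CON 1 but not without any other single library (adjusted p = 0.0508 to 0.144). FN1 and SNAI1 had 0.35 and 0.24 (adjusted p = 0.125 and 0.158). FN1 passed with the correction (0.46, adjusted p = 0.0307) and SNAI1 without CON 1 (0.31, adjusted p = 0.0373).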

How the data were processed

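Counts from 6 libraries are the base of all tests. Per the submitters' processing notes, the tools were HTSeq 0.11.2, HISAT2 2.2.1.0 and fastp 0.20.1, on hg38, and the authors deposited raw read counts per gene and FPKM values side by side. FPKM equalled count over total over length for 16229 of 16229 genes (tolerance 1e-09), so it is no second measurement. Libraries were grouped by the treatment label. Genes were filtered (filterByExpr, minimum count 10, minimum total 15), scaled by TMM and fitted across the whole table with edgeR 4.0.16 (glmQLFit, glmQLFTest) in R 4.3.3, with Benjamini-Hochberg adjustment. Alternatives were other scalings and filters, DESeq2 1.42.0, limma 3.58.1 (voom, and log2 of FPKM plus 1 or 0.1), a replicate block, a GC and length correction (mgcv 1.9.3), near-identical keratins summed, and each library left out. Leaving out replicate 1 of both groups was chosen after seeing the data.

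Same-numbered libraries deviated together (r = 0.206, 0.137 and 0.104, against -0.172 to 0.0954 for other pairs). Each passed the limit of 0.1, though 0.104 lies close to the 0.0954 of GCA 2 with CON 3. The main fit had no block, and the replicate number entered only in alternative settings. A pairing would rest on these values and the shared numbers only, and is not established. GC content of the longest protein-coding GENCODE transcript was matched for 16103 genes. Per-library values were given for called members with an absolute log2 fold change of at least 1, the 8 members of highest FPKM and VIM, and for others by family; of each list, the 4 tested genes of lowest p plus CDH1, PERP, TP63 and KLF4 were named. The members and lists were chosen with earlier results of these data known.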

Additional observations from a re-analysis of the deposited data

How the results depend on the processing

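Across 20 other settings 8 to 15 members rose (10 to 14 when 1 library was left out), while the share of all tested genes that rose ran from 11.8% without GCA 3 to 29.3% without replicate 1 of both groups. The number that fell ranged from 1 to 3 when 1 library was left out, with 1 without GCA 3, and was 5 when the correction for GC content and length was fitted with the replicate block. KRT19 stood at -0.30 there and with the GC and length correction alone, and at 0.17 with the block alone, so its sign turned with that correction. For single members 523 values left the call as it was, 31 lost the call and 23 gained one. Some of the 523 changed sign without a call on either side, such as PLEC (0.20, and -0.23 with the GC and length correction). Over all genes 4584 were called, against 2621 without GCA 3, 3029 without CON 2 and 7419 without replicate 1 of both groups. The GC and length correction called 3616 genes, 1665 higher and 1951 lower.

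With the replicate block 12 members rose and 3 fell. VIM lost its call (adjusted p = 0.0843) and PKP2 gained one (0.0477), and no other member's call changed. The VIM FPKM over summed keratin FPKM ranged, as a log2 difference, from -2.47 without CON 3 to -0.64 without CON 2. Genes with a few counts per library, such as KRT6A and KRT14, limit what this depth can show.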
